A study of Homo sapiens with 6 samples.

Results

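The respiratory chain genes were the protein-coding rows of the RNA-seq table whose symbols name subunits of complexes I to V or close relatives: symbols beginning with NDUFA, NDUFB, NDUFC, NDUFS or NDUFV, SDHA to SDHD, CYC1, and symbols beginning with UQCR, COX4 to COX8 or ATP5, together with the protein-coding genes of the mitochondrial genome. The rule found 107 genes among 21301 rows, of which 94 were nuclear and 13 mitochondrial, and it used no measured value. A further 22 rows matched the symbols but were not protein-coding, mostly pseudogenes, and were left out. The 94 nuclear genes comprised 45 of complex I, 4 of complex II, 10 of complex III, 15 of complex IV, 18 of complex V and 2 readthrough genes, and the symbols also took in 8 assembly factors of complex I (NDUFAF1 to NDUFAF8). SH-SY5Y cells, an adrenergic human neuroblastoma line, received siControl or siPSF at 10 nM, and RNA was sequenced after 72 h from 3 libraries per group. The siPSF group rests on a single siRNA sequence against PSF, the protein encoded by SFPQ, so effects of that sequence and of SFPQ loss cannot be told apart.

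The respiratory chain passes electrons from NADH (complex I) and succinate (complex II) through ubiquinone, complex III and cytochrome c to oxygen at complex IV, and the proton gradient built on the way drives ATP synthase, complex V. Its subunits come from both genomes: complex II is encoded in the nucleus alone, whereas the membrane-embedded cores of the other complexes include products of the mitochondrial genome, which is transcribed from both strands as long precursors that are then cut into single RNAs. Nuclear subunits are transcribed one by one, translated in the cytosol and imported, and their promoters are known for sites of the factors NRF1, GABP (an ETS-family factor) and YY1. Neurons are known to draw most of their ATP from this chain. PSF is a nuclear RNA-binding protein that acts in transcription and splicing.

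The promoters shown are those of members that rose after siPSF and that held, within the window from 250 bases before to 50 bases after the start listed in the RefSeq table (GRCh38.p14), an exact match in either strand to the letters GCATGCGC (NRF1-type), CCGGAAG (ETS-type) or AAGATGG (YY1-type); capitals mark the match, and the sequence is given along the gene's own strand. The ATP5MC2 window lies at chr12:53676034-53676333 (minus strand) and holds an NRF1-type match, the UQCRH window at chr1:46303448-46303747 (plus strand) holds an ETS-type match read on the opposite strand, and the COX7C window at chr5:86617691-86617990 (plus strand) holds a YY1-type match read on the opposite strand. The ATP5MC2 window lies inside the span of its gene (chr12:53665170-53681423) and not at the gene's outer start. The last sequence is the stretch of chrM:8527-8572 (plus strand, hg38) that the genes ATP8 and ATP6 share, with the start codon of ATP6 and the stop codon of ATP8 in capitals.
ATP5MC2: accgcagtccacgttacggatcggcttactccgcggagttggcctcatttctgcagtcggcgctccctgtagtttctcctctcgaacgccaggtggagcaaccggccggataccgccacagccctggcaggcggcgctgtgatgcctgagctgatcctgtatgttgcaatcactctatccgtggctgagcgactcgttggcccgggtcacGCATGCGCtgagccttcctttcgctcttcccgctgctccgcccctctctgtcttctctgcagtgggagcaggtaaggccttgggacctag
UQCRH: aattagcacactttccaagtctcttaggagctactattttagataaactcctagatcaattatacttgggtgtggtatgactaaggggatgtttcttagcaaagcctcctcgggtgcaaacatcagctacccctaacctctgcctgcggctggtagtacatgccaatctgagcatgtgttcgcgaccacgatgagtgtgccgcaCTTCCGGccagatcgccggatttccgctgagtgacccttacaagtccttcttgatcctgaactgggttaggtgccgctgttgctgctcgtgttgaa
COX7C: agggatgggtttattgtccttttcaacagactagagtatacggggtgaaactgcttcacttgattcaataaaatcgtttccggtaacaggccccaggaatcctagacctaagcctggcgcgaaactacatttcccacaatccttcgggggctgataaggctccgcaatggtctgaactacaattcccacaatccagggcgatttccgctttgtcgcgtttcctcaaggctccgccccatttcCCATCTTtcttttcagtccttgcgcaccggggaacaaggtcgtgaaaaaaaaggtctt
ATP8 and ATP6 overlap: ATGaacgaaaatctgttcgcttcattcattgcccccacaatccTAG

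Of the 94 nuclear members, 76 had a promoter in that table, which holds 27305 windows of 300 bases. The NRF1-type letters were in 19.7% of the member promoters, against 3.27% of all windows and 5.34% of the 11732 windows of tested protein-coding genes. The ETS-type letters were in 27.6% of member promoters, against 10.7% of all windows and 18.1% of those of tested protein-coding genes, and the YY1-type letters were in 21.1%, against 6.06% and 7.18%. The letters GGGCGG (SP-type) were in 57.9% of member promoters, against 44.6% and 69.1%. The letters TATAAA, the core of the classical box before a start site, were in 7.89%, against 12% and 5.86%. Both strands were searched for each, and no motif contains another. A match is a description of letters and not of binding. Among the 7 risen nuclear members with a promoter in the table, each of the first 3 motifs was found in 1. The median log2 fold change was 0.12 for members with the NRF1-type letters and 0.06 for those without, 0.09 and 0.05 for the ETS-type letters, and 0.10 and 0.06 for the YY1-type letters. These medians are a description, and their differences were not tested.

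The libraries held between 101540520 and 132420931 counts, and no pair of replicates was alike within sampling noise. Counts were expressed as CPM, which puts all libraries on a common size, with edgeR's TMM factors, and 19694 genes, all 107 members among them, were tested with edgeR's quasi-likelihood test. A gene was called at a Benjamini-Hochberg adjusted p under 0.05. SFPQ stood at 372, 356 and 401 CPM in siControl and at 209, 193 and 165 CPM in siPSF, which left 50.2% of the siControl mean (log2 fold change -0.99 ± 0.10 (SE, n = 3 per group), edgeR adjusted p = 9.5e-05). The 10 adrenergic markers of the line summed to between 5206 and 5812 CPM in siControl and between 4656 and 5742 CPM in siPSF. Of the 10, 3 were called: DBH and TH were lower (log2 fold changes -0.68 and -1.20) and GATA3 was higher (0.30). TH was under 1 CPM in every library. Of 9 markers of mesenchymal-type neuroblastoma cells, 8 were in the table and summed to between 243 and 253 CPM and between 223 and 259 CPM, with 2 called: FN1 fell by 0.60 and COL3A1 by 0.71 on the log2 scale. The others went the other way without passing the test: COL1A1 (0.55), CD44 (0.52), SNAI2 (0.39), YAP1 (0.35), VIM (0.19) and THY1 (0.17). The part of these marker changes in the results was not tested. In whole cultures, a change in RNA per cell and a change in the make-up of the culture cannot be told apart.

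Of the 107 respiratory chain genes, 97 did not pass the test after siPSF, 9 were called higher (8.41%) and 1 was called lower. Of the 94 nuclear genes, 8 rose (8.51%) and 1 fell by edgeR's test, beside 6.65% of all tested genes called higher and 8.27% called lower. The risen genes were NDUFB3 of complex I, UQCRB and UQCRH of complex III, COX7A2L, COX7C, NDUFA4L2 and COX6B2 of complex IV, and ATP5MC2 of complex V; the gene that fell was the readthrough gene NDUFC2-KCTD14. UQCRB, COX7C and NDUFB3 each have a pseudogene in the table (UQCRBP1, COX7CP1 and NDUFB3P4) with which reads could be shared, so their counts carry that uncertainty. Of the 13 mitochondrial genes, ND1 rose and none fell (7.69% called higher). At an unadjusted p under 0.05, 6 mitochondrial genes were higher and 0 lower, beside 2835 higher and 3026 lower of the 19694 tested genes. DESeq2 called 2 mitochondrial genes higher and 0 lower. The median log2 fold change was 0.08 over the nuclear genes and 0.22 over the mitochondrial genes, beside 0.01 over all genes tested. Differences were positive for 66 of the 94 nuclear genes and 12 of the 13 mitochondrial genes. All 3 siPSF libraries lay above all 3 siControl libraries for 27 nuclear genes (28.7%) and 3 mitochondrial genes, beside 16.7% of all tested genes, and all 3 lay below for 4 nuclear genes and 0 mitochondrial genes, beside 17.8%.

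**Figure D1:**
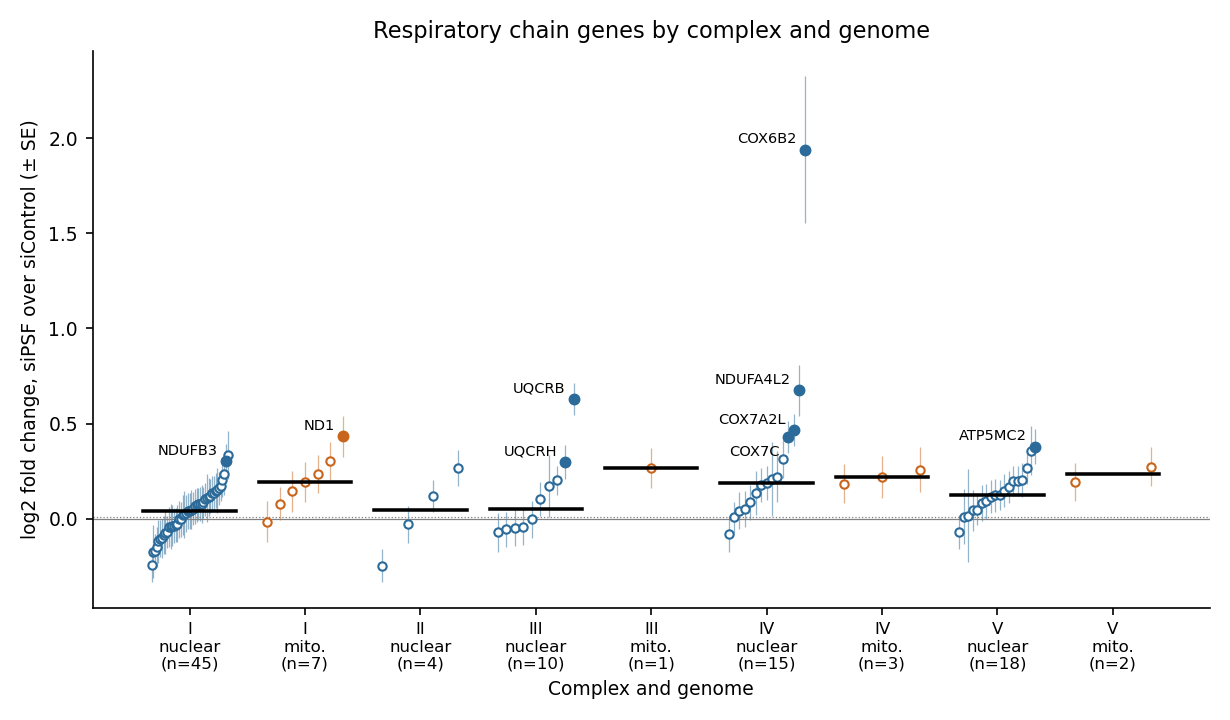
Log2 fold change (siPSF over siControl) with its standard error from edgeR for each member of complexes I to V, grouped on the horizontal axis by complex and genome. Blue points are nuclear and orange points mitochondrial genes, filled points passed the test, black bars are medians and the dotted line is the median of all tested genes; COX6B2 stands highest at 1.94, and the nuclear median is 0.19 in complex IV and 0.04 in complex I.

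Nuclear members were also set beside other genes of their length. They spanned a median of 10.2 kb, exons and introns together, beside 30.3 kb for tested protein-coding genes, and log2 fold changes fell with span across protein-coding genes, from a median of 0.10 under 5 kb to -0.17 at 100 kb or more. The 75 nuclear members under 25 kb had a median of 0.09, beside 0.07 for the 6378 protein-coding genes of that span. Of these members 9.33% were called higher, beside 9.05% of protein-coding genes of that span, and 29.3% had all siPSF libraries above all siControl libraries, beside 22.6%. After log2 fold changes were centred on the protein-coding median within 20 bins of gene span, an alternative chosen after the data were seen, the nuclear median was 0.0053. The part of gene length in the members' values was not tested. The mitochondrial genes lack introns and were not part of that comparison.

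**Figure D2:**
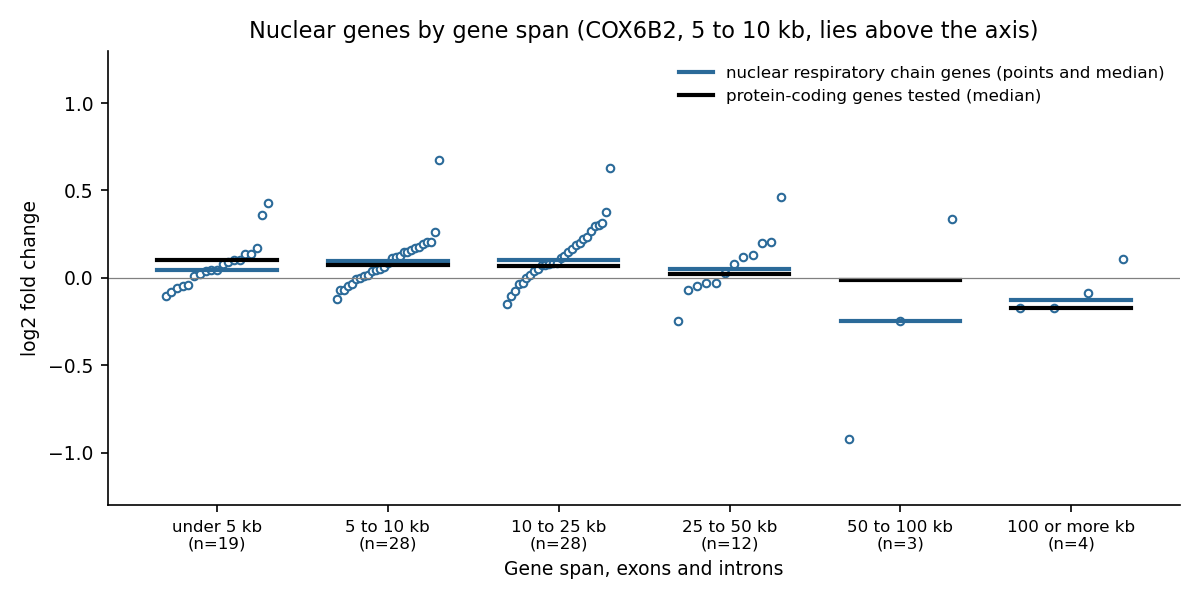
Log2 fold change of the nuclear members by gene span in kb (horizontal axis, 6 classes). Open points are members, blue bars their medians and black bars the medians of all tested protein-coding genes of that class; the protein-coding medians fall from 0.10 under 5 kb to -0.17 at 100 kb or more, while those of the members are 0.05, 0.10, 0.10, 0.05, -0.25 and -0.13 from the shortest to the longest class.

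Complex I oxidises NADH and is the largest of the complexes. Among its 45 nuclear genes, NDUFB3 alone passed the test and 44 did not, and the median log2 fold change was 0.04. NDUFB3 (chr2:201072001-201085750), an accessory subunit of the membrane arm, stood at 25.5, 24.4 and 23.8 CPM in siControl and at 31.9, 29.2 and 29.7 CPM in siPSF. The siPSF libraries were all above the siControl libraries, and the log2 fold change was 0.30 ± 0.09 (edgeR adjusted p = 0.043). That call was kept in 1 of the 6 fits that left out a library, and the log2 fold change lay between 0.26 and 0.33 in them.

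The 7 nuclear core subunits of complex I, which carry electrons from NADH to ubiquinone, did not pass the test. NDUFV1, at which NADH is oxidised, was at 149, 145 and 120 CPM in siControl and 134, 146 and 145 CPM in siPSF (log2 fold change 0.04). The NADH-oxidising module (NDUFV1, NDUFV2, NDUFS1) ranged from -0.07 to 0.04 on the log2 scale. In the module on the ubiquinone side, NDUFS7, which holds the last iron-sulfur cluster, differed by -0.15, NDUFS8, an iron-sulfur subunit, by -0.04 and NDUFS3 by 0.06. The groups overlapped for all 7, and 0 were called at an adjusted p or at an unadjusted p under 0.05.

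The 30 accessory subunits of complex I ranged from -0.17 to 0.33 on the log2 scale, with 19 positive and a median of 0.06. NDUFA5, the accessory subunit with the largest positive difference, was at 46.2, 39.7 and 54.3 CPM in siControl and at 64.9, 50.3 and 61.7 CPM in siPSF. Its groups overlapped (log2 fold change 0.33 ± 0.13, edgeR adjusted p = 0.095). NDUFA13, also known as GRIM-19 and the nuclear complex I gene with the highest level per length (mean FPKM 379 in siControl and 335 in siPSF), was at 227, 232 and 179 CPM and then 203, 202 and 190 CPM, a difference of -0.10 ± 0.10 on the log2 scale. NDUFS4 had its lowest value in siPSF 3, with 24.3, 22.6 and 21.5 CPM in siControl and 23.1, 22.1 and 15.5 CPM in siPSF.

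Of the 8 assembly factors with NDUFAF symbols, which help build complex I without staying in it, none passed the test by edgeR. At an unadjusted p under 0.05 the count was 0 higher and 1 lower, beside 2835 higher and 3026 lower of the 19694 tested genes. NDUFAF5, the member of complex I with the largest negative difference, was at 25.9, 25.6 and 24.8 CPM in siControl and at 22.1, 21.6 and 20.8 CPM in siPSF. Its groups did not overlap, and the log2 fold change was -0.25 ± 0.09 (edgeR adjusted p = 0.087). NDUFAF2 also lay lower in every siPSF library, with a difference of -0.09 on the log2 scale.

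Complex II, the succinate dehydrogenase that also works in the tricarboxylic acid cycle, had 4 genes and 0 calls by edgeR. At an unadjusted p under 0.05, 1 gene was higher and 1 lower, beside 2835 higher and 3026 lower of the 19694 tested genes. SDHA, the flavoprotein that oxidises succinate, was at 65.0, 68.0 and 58.9 CPM in siControl and at 53.1, 53.6 and 54.9 CPM in siPSF. SDHD, a membrane anchor, was at 49.7, 50.1 and 55.7 CPM in siControl and at 66.5, 56.2 and 64.1 CPM in siPSF. The groups did not overlap for either gene, and the differences had opposite signs: -0.25 ± 0.09 for SDHA (edgeR adjusted p = 0.072) and 0.27 ± 0.09 for SDHD (edgeR adjusted p = 0.078). SDHA has near-identical pseudogene copies, so its counts are uncertain. DESeq2 called SDHA lower. SDHB, the iron-sulfur subunit, and SDHC, the other anchor, differed by 0.12 and -0.03.

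Complex III passes electrons from ubiquinol to cytochrome c. UQCRB and UQCRH rose among its 10 nuclear genes (20%, beside 6.65% of all tested genes), and the median was 0.05. UQCRB (chr8:96222947-96235545), the subunit next to the ubiquinone site, was at 71.7, 63.4 and 64.7 CPM in siControl and at 106, 96.5 and 107 CPM in siPSF. Every siPSF library stood well above every siControl library, and the log2 fold change of 0.63 ± 0.09 (1.55-fold, edgeR adjusted p = 0.00061) was called in all 6 fits that left out a library and all 7 other alternatives. The ratio of counts to FPKM gave UQCRB an exonic length of 9330 bases, near its longest annotated transcript of 8459 bases, so its FPKM (7.32 in siControl, 10.7 in siPSF) is low for its count and should not be set beside those of other subunits.

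UQCRH (chr1:46303698-46316776), the hinge protein that lies by cytochrome c1, was at 337, 346 and 291 CPM in siControl and at 395, 402 and 401 CPM in siPSF. The siPSF libraries lay close together and above all siControl libraries (log2 fold change 0.30 ± 0.09, edgeR adjusted p = 0.039). That call was kept in 0 of the 6 fits that left out a library, with log2 fold changes between 0.22 and 0.34. Its near-identical relative UQCRHL, which can share reads with it, stood at 1.72 to 1.98 CPM in siControl and 1.98 to 2.11 CPM in siPSF, so both counts are uncertain. The electron-carrying subunits CYC1 (cytochrome c1) and UQCRFS1 (the Rieske iron-sulfur protein) differed by -0.06 and -0.07, with overlapping groups. UQCRC2, a core protein, was at 98.6, 94.6 and 92.9 CPM and then 109, 112 and 108 CPM, without overlap (log2 fold change 0.20 ± 0.08, edgeR adjusted p = 0.098), while its partner UQCRC1 differed by less than 0.01.

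Complex IV, cytochrome c oxidase, had the largest share of risen genes among the complexes, 4 of its 15 nuclear genes (26.7%, beside 6.65% of all tested genes), and 14 of the 15 differences were positive with a median of 0.19. Of the 4 risen genes, COX7A2L, NDUFA4L2 and COX6B2 are alternative forms of standard subunits, and COX7C is a standard subunit. The fourth alternative form, COX4I2, known from lung and hypoxia, was at 1.64, 2.22 and 1.65 CPM in siControl and at 1.73, 2.32 and 2.32 CPM in siPSF, and its groups overlapped (log2 fold change 0.21 ± 0.20).

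COX7A2L (chr2:42335559-42368957), related to subunit 7A and known for joining complexes III and IV in supercomplexes, was at 146, 167 and 150 CPM in siControl and at 208, 214 and 218 CPM in siPSF. Its siPSF libraries lay together above all siControl libraries (1.38-fold, log2 fold change 0.47 ± 0.08, edgeR adjusted p = 0.0029). COX7C (chr5:86617941-86620962), a small standard subunit, was at 121, 122 and 108 CPM in siControl and at 153, 152 and 167 CPM in siPSF. Its groups were also apart, and the log2 fold change was 0.43 ± 0.09 (edgeR adjusted p = 0.0058). Both calls were kept in all 6 fits that left out a library and in all 7 other alternatives.

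NDUFA4L2 (chr12:57234903-57240762), the paralog of NDUFA4 that hypoxia induces, was at 7.57, 6.77 and 5.60 CPM in siControl and at 9.72, 11.0 and 11.1 CPM in siPSF, 1.6-fold (log2 fold change 0.67 ± 0.13, edgeR adjusted p = 0.0059). The groups did not overlap, and the call was kept without each library in turn. NDUFA4 itself, a subunit once assigned to complex I and now to complex IV, was at 175 to 194 CPM in siControl and at 174 to 191 CPM in siPSF, a log2 fold change of 0.01. COX6B2 (chr19:55349704-55354719), the testis form of subunit 6B, was near the lower limit of measurement, with 15, 11 and 7 counts in the siControl libraries and 40, 43 and 26 counts in the siPSF libraries. That is 0.12, 0.08 and 0.06 CPM and then 0.34, 0.41 and 0.26 CPM, with the groups apart (log2 fold change 1.94 ± 0.39, edgeR adjusted p = 0.0059), and the call was kept in all 6 fits that left out a library.

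**Figure D3:**
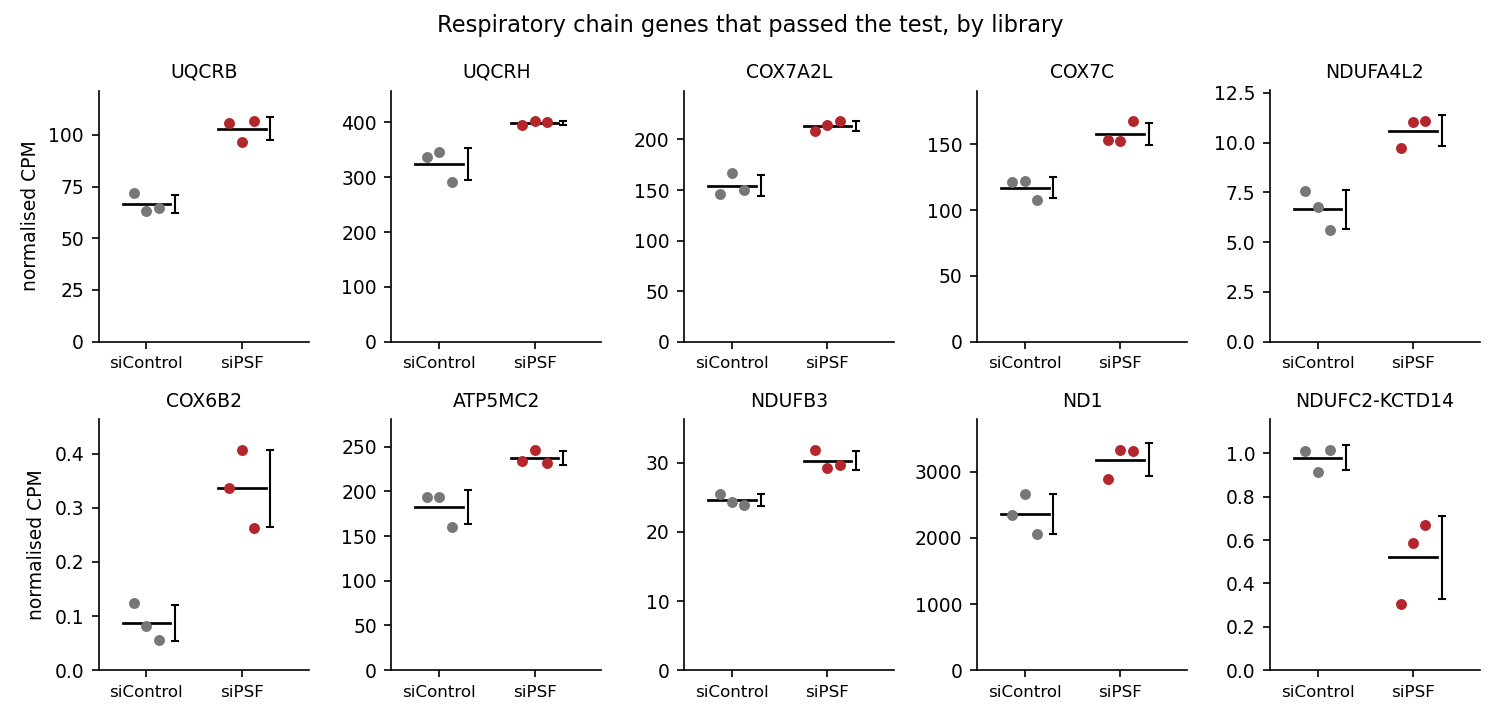
Normalised CPM (vertical axes from 0, a separate scale for each gene) of the 10 members that passed the test, with 1 point per library, the mean as a bar and the standard deviation beside it. The groups are apart for each gene; NDUFC2-KCTD14 is lower in siPSF, the other 9 are higher, and COX6B2 stays under 0.5 CPM in every library.

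The remaining standard subunits of complex IV did not pass the test. COX6C was at 63.6, 51.3 and 50.7 CPM in siControl and 70.7, 68.6 and 66.3 CPM in siPSF, without overlap (log2 fold change 0.31 ± 0.10, edgeR adjusted p = 0.055). COX6B1, the ubiquitous form of subunit 6B, was at 141, 150 and 124 CPM and then 154, 159 and 160 CPM, also without overlap (0.19 ± 0.09). COX4I1, which contacts the catalytic core, differed by 0.05 ± 0.09 and COX6A1, the nuclear member with the highest siControl mean FPKM (583), by -0.08 ± 0.09.

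The alternative forms were also set against their standard counterparts by level per length, as the share of the pair's summed FPKM. COX7A2L made up 26.5%, 26.1% and 27.4% of the sum of COX7A2 and COX7A2L in siControl and 29.6%, 30.8% and 33.9% in siPSF. NDUFA4L2 made up 6.69%, 5.63% and 5.19% of its pair in siControl and 8.02%, 9.13% and 9.82% in siPSF. For both pairs the groups did not overlap. COX6B2 made up a mean of 0.014% of its pair in siControl and 0.051% in siPSF, and COX4I2 0.757% ± 0.104 (SD, n = 3) and 0.838% ± 0.112. The ratio of counts to FPKM gave NDUFA4 an exonic length of 2242 bases and NDUFA4L2 1310 bases. It gave COX6B2 2309 bases and COX6B1 538 bases. The longest annotated transcripts of NDUFA4 and COX6B2 have 2035 and 2083 bases. The shares of these 2 pairs thus depend on the lengths used and do not give the level of one form beside the other. COX6A2, COX7A1, COX7B2 and COX8C were not analysed here.

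Complex V, the ATP synthase, showed small positive differences in 17 of its 18 nuclear genes (median 0.12), of which ATP5MC2 passed the test. ATP5MC2 (chr12:53665170-53681423), which encodes subunit c of the membrane ring, was at 193, 194 and 161 CPM in siControl and at 234, 246 and 232 CPM in siPSF. The siPSF libraries were all above the siControl libraries (1.3-fold, log2 fold change 0.38 ± 0.09, edgeR adjusted p = 0.016). The call was kept in 5 of the 6 fits that left out a library, and without siPSF 2 its adjusted p was 0.052.

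Subunit c is encoded by ATP5MC1, ATP5MC2 and ATP5MC3, whose mature proteins are identical. ATP5MC1 was at 44.6, 47.9 and 38.9 CPM in siControl and 45.5, 49.2 and 40.6 CPM in siPSF, and ATP5MC3 at 73.9, 73.8 and 67.9 CPM and then 81.8, 81.7 and 71.3 CPM. Neither passed the test, with log2 fold changes of 0.04 ± 0.11 and 0.12 ± 0.09. By FPKM, ATP5MC1 made up 20.5%, 21.7% and 21.3% of the sum of ATP5MC2 and ATP5MC1 in siControl and 17.9%, 18.4% and 16.4% in siPSF, so that the share was lower in every siPSF library. ATP5MC3 made up a mean of 8.98% ± 0.48 of its sum with ATP5MC2 in siControl and 7.60% ± 0.48 in siPSF. The ratio of counts to FPKM gave ATP5MC3 an exonic length of 2891 bases, near its longest annotated transcript of 2587 bases, and ATP5MC2 723 bases. The FPKM of ATP5MC3 is thus low for its count, and its share does not give its level beside ATP5MC2 or ATP5MC1.

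Among the other complex V genes, those of the peripheral stalk, which holds the head still, were all positive and ranged from 0.08 to 0.27. ATP5PB, stalk subunit b, was at 126, 117 and 115 CPM in siControl and 149, 133 and 149 CPM in siPSF, without overlap, and its edgeR adjusted p of 0.0501 lay just outside the threshold. In the F1 head, the catalytic subunit ATP5F1B was at 807, 797 and 703 CPM in siControl and 744, 776 and 676 CPM in siPSF (-0.07 ± 0.09), while ATP5F1D, the delta subunit of the rotor shaft, was at 72.0, 63.9 and 47.8 CPM and then 75.2, 76.6 and 83.6 CPM (0.36 ± 0.13, edgeR adjusted p = 0.08). ATP5F1E, the epsilon subunit, was split among the siPSF libraries: 169, 146 and 141 CPM in siControl, and 198, 183 and 79.5 CPM in siPSF, with siPSF 3 below all others. ATP5IF1, which inhibits the reverse reaction, was likewise lowest in siPSF 3 at 66.2 CPM, with 100 CPM in the other siPSF libraries.

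The readthrough genes join a respiratory chain gene to its neighbour and share exons with it, so their counts are uncertain. NDUFC2-KCTD14 (chr11:78015715-78079862) was at 1.01, 0.91 and 1.02 CPM in siControl and 0.30, 0.59 and 0.67 CPM in siPSF, from 122 to 128 counts and from 36 to 66 counts. The groups did not overlap (log2 fold change -0.92 ± 0.29, edgeR adjusted p = 0.049), and the call was kept in 1 of the 6 fits that left out a library. NDUFC2 itself, whose exons it shares, was at 80.1, 81.0 and 73.8 CPM and then 87.1, 81.4 and 80.8 CPM (0.09 ± 0.08). ATP5MF-PTCD1 was at 16.9 to 23.8 CPM in siControl and 16.2 to 25.7 CPM in siPSF.

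Per length, most mitochondrial genes stood far above the nuclear ones. Mean FPKM in siControl was 8890 for COX1, 652 for ND5 and 141 for ND6, while the highest nuclear gene, COX6A1, was at 583, so that ND6 lay below several nuclear genes. ND1, a membrane-arm subunit of complex I (chrM:3307-4262), was at 2340, 2668 and 2060 CPM in siControl and at 2889, 3330 and 3317 CPM in siPSF. Its groups did not overlap (1.35-fold, log2 fold change 0.43 ± 0.11, edgeR adjusted p = 0.019). The call was kept in 4 of the 6 fits that left out a library and lost without siControl 3 and without siPSF 2, with a largest adjusted p of 0.057 over all alternatives, and its log2 fold change was between 0.34 and 0.52 when a library was left out.

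The other mitochondrial complex I genes did not pass the test. ND2 was at 2766, 3243 and 2628 CPM in siControl and at 3324, 3733 and 3608 CPM in siPSF, without overlap (0.30 ± 0.10, edgeR adjusted p = 0.061). ND3 (0.23 ± 0.10), ND4 (0.19 ± 0.11) and ND5 (0.14 ± 0.11) had overlapping groups. ND4L was at 1038, 1305 and 1116 CPM in siControl and at 1050, 1284 and 1088 CPM in siPSF, and was the only mitochondrial gene with a negative difference (-0.02 ± 0.11). It overlaps ND4 by 7 bases, and reads there can fall to either gene. ND6, encoded on the light strand and known to lack a poly(A) tail in human mitochondria, was at 75.9, 83.1 and 78.5 CPM and then 75.6, 88.0 and 87.1 CPM (0.08 ± 0.09).

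In complex III, CYTB, the cytochrome b that holds both ubiquinone sites, was at 2569, 3057 and 2410 CPM in siControl and at 2956, 3422 and 3275 CPM in siPSF, so that siControl 2 lay above siPSF 1 (0.26 ± 0.11, edgeR adjusted p = 0.12). The catalytic core of complex IV showed the same overlap: COX1, the most abundant, was at 13816, 16960 and 13418 CPM and then 16132, 18434 and 16837 CPM (0.22 ± 0.11). COX2 differed by 0.18 ± 0.10 and COX3 by 0.26 ± 0.12. In complex V, ATP6 was at 4049, 4548 and 3668 CPM in siControl and at 4822, 5398 and 4608 CPM in siPSF, without overlap (0.27 ± 0.10, edgeR adjusted p = 0.097). ATP8, which shares the 46 bases shown above with ATP6 on a common RNA, differed by 0.19 ± 0.10. Nuclear copies of mitochondrial sequence can also take or give reads, which was not tested.

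**Figure D4:**
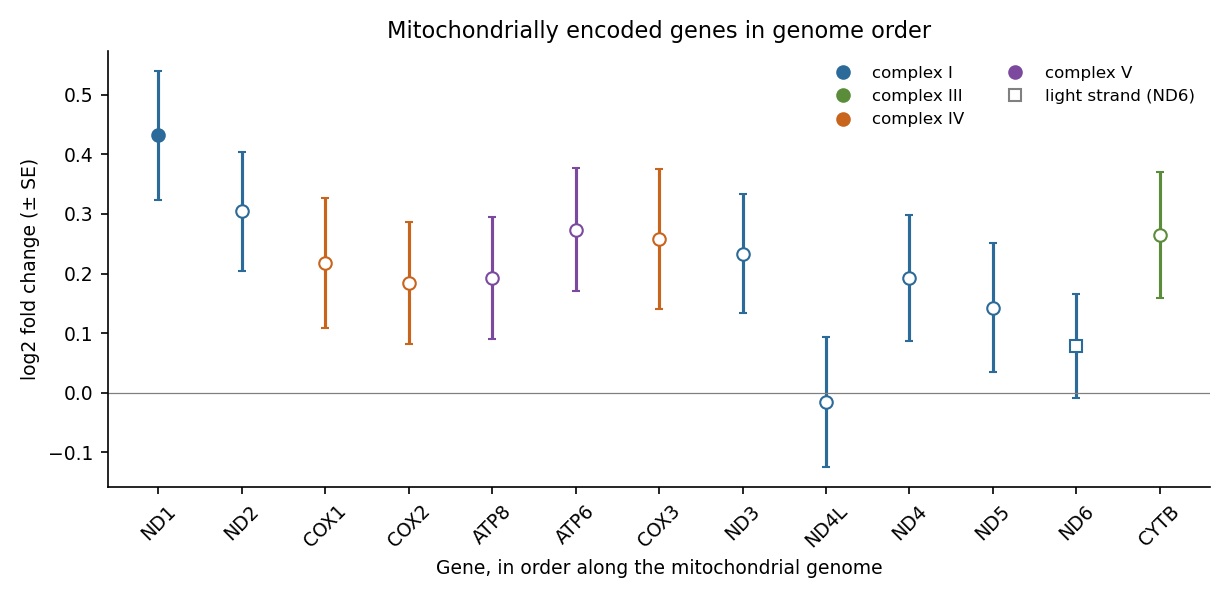
Log2 fold change (vertical axis, siPSF over siControl) with its standard error for the 13 mitochondrial genes, in their order along the genome. Colours mark the complex, the filled point (ND1, 0.43) passed the test, the square is the light-strand gene ND6, and ND4L alone lies below 0 at -0.02.

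Along the heavy-strand RNA, differences were larger at its start than towards its end, from 0.43 at ND1 and 0.30 at ND2 to 0.14 at ND5, with CYTB, the last gene, at 0.26. Across the 12 heavy-strand genes the log2 fold change and the start position had Pearson's r = -0.51 and Spearman's rho = -0.47, and without ND1 and ND4L r = -0.28 and rho = -0.22 over 10 genes. These are descriptions over genes of the same libraries and the same precursor, which are not independent.

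Summed over genes, the mitochondrial genes took 4.92%, 5.78% and 4.79% of the counts in siControl and 5.46%, 6.09% and 5.68% in siPSF. The nuclear genes, without the 2 readthrough genes here and in the sums below, took 1.03%, 1.01% and 0.926% and then 1.02%, 1.0% and 0.957%. For both sums the groups overlapped. As normalised CPM, the mitochondrial sum was 48124, 57345 and 45497 in siControl and 55492, 63163 and 58550 in siPSF, 1.17-fold on the means. The nuclear sum was 10050, 9999 and 8795 CPM in siControl and 10362, 10408 and 9856 CPM in siPSF, 1.06-fold, with the lowest value in siControl 3. The ratio of mitochondrial to nuclear counts was 4.79, 5.73 and 5.17 in siControl and 5.36, 6.07 and 5.94 in siPSF. Its difference of 0.15 on the log2 scale was close to the SD between libraries (0.13 in siControl and 0.10 in siPSF, n = 3 each), and siControl 2 lay inside the siPSF range. In both groups the ratio was highest in replicate 2 and lowest in replicate 1, and each siPSF library lay above the siControl library of its number. The difference was not tested, so whether the balance of the genomes changed was not settled with these libraries.

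**Figure D5:**
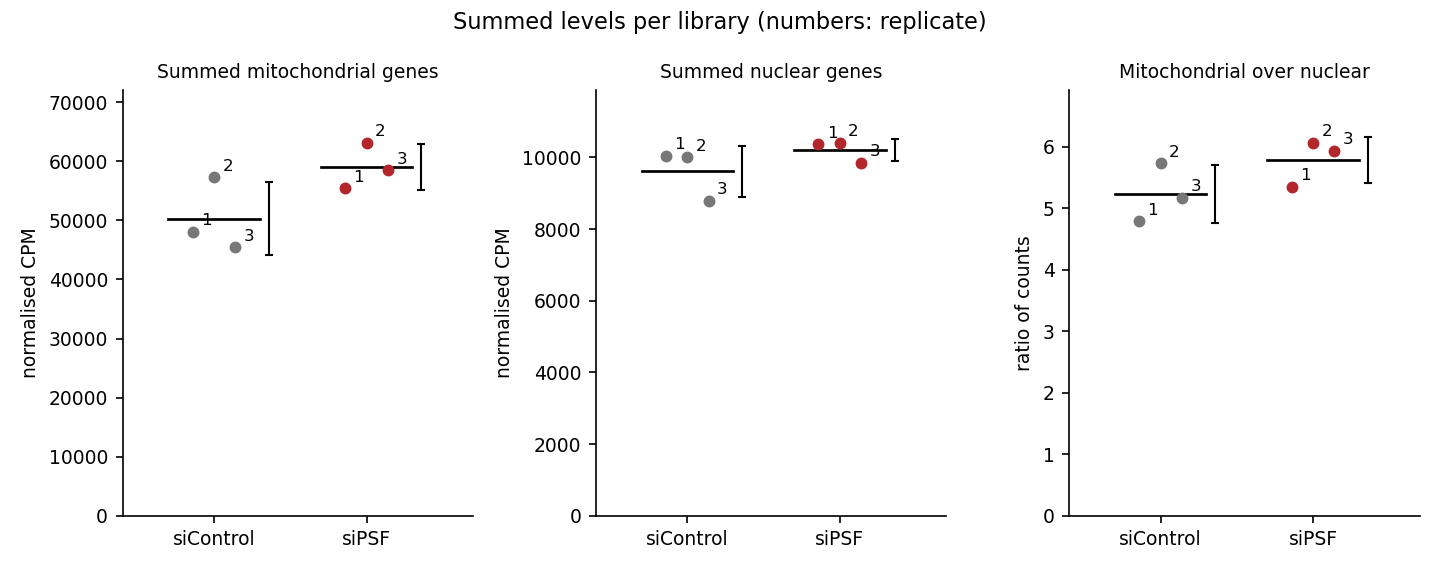
Summed normalised CPM of the 13 mitochondrial genes and of the nuclear genes without the 2 readthrough genes, and the ratio of their counts, for each library (vertical axes from 0). Points are libraries numbered by replicate, bars are means and the lines beside them standard deviations; in the first and the third panel siControl 2 lies above siPSF 1.

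By complex, the nuclear sums were apart between groups for complex III (988.7 to 1159 CPM in siControl, 1201 to 1224 CPM in siPSF) and complex IV (1738 to 2065 CPM and 2101 to 2147 CPM). The complex III mean was 1100 CPM in siControl and 1212 CPM in siPSF. Within it, the called genes UQCRH and UQCRB went from means of 325 and 66.6 CPM to 399 and 103 CPM. Of the 10 nuclear complex III differences, 5 were positive and 5 negative. The nuclear sums overlapped for complex I (2905 to 3309 CPM and 3101 to 3298 CPM), complex II (332 to 346 CPM and 313 to 354 CPM) and complex V (2822 to 3239 CPM and 3129 to 3401 CPM). The mitochondrial sums overlapped for complexes I, III and IV, and for complex V lay at 4504 to 5550 CPM and 5557 to 6563 CPM. The ratio of the siPSF to the siControl mean was 1.02 for nuclear complex I, 1.0 for complex II, 1.1 for complex III, 1.09 for complex IV and 1.08 for complex V, and between 1.16 and 1.2 for the mitochondrial part of each complex.

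The siControl 3 library weighed most on the nuclear median, which was 0.02 without it. Without siControl 3, 6 nuclear genes were called higher, the same count as without siControl 2, siPSF 1 or siPSF 2. No mitochondrial gene was called by edgeR without siControl 3 or without siPSF 2, where the mitochondrial medians were 0.14 and 0.16. Without siControl 2, which had the highest mitochondrial sum of its group, the mitochondrial median was 0.32 and 2 mitochondrial genes were called. UQCRB, COX7A2L, COX7C, NDUFA4L2 and COX6B2 were called without siControl 2 and also without siControl 3.

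Genes around the chain were counted on accompanying lists. Of 37 genes for mitochondrial transcription, RNA processing and DNA maintenance, 7 rose (18.9%, beside 6.65% of all tested genes) and 1 fell (beside 8.27%). The median log2 fold change was 0.24, and all siPSF libraries lay above all siControl libraries for 19 (51.4%, beside 16.7%). LRPPRC, which stabilises mitochondrial mRNAs, was at 209, 189 and 213 CPM in siControl and at 260, 240 and 310 CPM in siPSF (0.41 ± 0.10, edgeR adjusted p = 0.02). FASTKD5, which acts in the cutting of mitochondrial precursors, rose by 0.46 and REXO2, an oligoribonuclease, by 0.47. Of the DNA maintenance genes, TWNK (the replicative helicase) rose by 0.38, SSBP1 (the single-strand DNA-binding protein) by 0.33 and TOP1MT (the mitochondrial topoisomerase I) by 0.46. MTERF4, which acts in mitochondrial ribosome assembly, rose by 0.27, and RNASEH1, which removes RNA from hybrids with DNA, fell by 0.31. TFAM, POLRMT and TFB2M, which start transcription of the mitochondrial genome, differed by -0.04, 0.21 and 0.30 and did not pass the test. The count of risen genes on this list was 2 without siControl 2 and 4 without siPSF 1.

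Of 20 regulators of nuclear respiratory genes, 1 rose (5%, beside 6.65% of all tested genes) and 2 fell (beside 8.27%). The median log2 fold change of the list was -0.09, with 6 differences positive and 14 negative. ESRRA rose (30.9, 31.0 and 28.9 CPM, then 36.4, 40.0 and 46.5 CPM, log2 fold change 0.44 ± 0.10, edgeR adjusted p = 0.015), and its relative ESRRG fell (110, 124 and 161 CPM, then 94.1, 79.9 and 80.6 CPM, -0.63 ± 0.13, edgeR adjusted p = 0.0062). Both are orphan nuclear receptors of the oestrogen-related group. PPARD, another nuclear receptor, fell by 0.33. NRF1 and GABPA, the factors of the first 2 motifs above, differed by -0.10 and 0.12 and did not pass the test. The coactivator PPARGC1A did not pass it either (-0.44 ± 0.42, with overlapping groups). PPARGC1A was near the lower limit of measurement, at 0.09, 0.23 and 0.21 CPM in siControl and 0.11, 0.16 and 0.12 CPM in siPSF. The ESRRA call was lost without siControl 2 and without siControl 3. The count of regulators called lower was 1 in place of 2 in 5 of the 6 fits that left out a library, all but that without siControl 3, and PPARD had an edgeR adjusted p of 0.044 in the full fit.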

How the data were processed

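The authors deposited 1 table of the whole series that lists raw read counts and FPKM values (reads scaled to exon length and mapped reads) by gene and library. For these counts the paper names poly(A) selection, removal of rRNA reads with Bowtie 2, TopHat and RefSeq, whereas the submitters' processing notes name Trimmomatic, HISAT2 2.1.0 and StringTie 2.1.3b on GRCh38; which of these made the table was not settled, nor was the use of strand. Counts start at 1; genes lacking reads in any library were not analysed here. Columns were mapped to samples by title. Counts were filtered with filterByExpr, scaled by TMM and tested with edgeR 4.0.16 (glmQLFTest, unpaired; R 4.3.3, Python 3.11.15, pandas 2.3.3), after a test on simulated data. The paper describes biological triplicates. Members and lists were chosen with earlier results of these data known. Genes were named if they were mitochondrial, called, at the extremes of a complex (mean of at least 1 CPM), highest in FPKM or listed as alternative forms, or if called on a list; TFAM, POLRMT, TFB2M, NRF1, GABPA, PPARGC1A and other members were named after their values were seen, and some genes are not reported here. Gene IDs of all 107 members were found in the RefSeq table. Alternatives used DESeq2 1.42.0 and limma 3.58.1 on log2(FPKM + 0.5) where the mean FPKM reached 0.5.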

Additional observations from a re-analysis of the deposited data

How the results depend on the processing

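SFPQ kept its call in every alternative, with log2 fold changes from -1.07 to -0.90 when each library was left out. Leaving out each library gave 6 to 10 nuclear genes called higher and 0 to 1 lower, 0 to 2 mitochondrial genes called higher, medians of 0.02 to 0.12 (nuclear) and 0.14 to 0.32 (mitochondrial), and a log2 ratio difference of 0.09 to 0.22. Without a filter on low counts, 0 nuclear genes were called lower and 0 mitochondrial genes higher; DESeq2 called 2 nuclear genes lower and 2 mitochondrial genes higher, and gave no adjusted p for 2065 genes. limma on log2(FPKM + 0.5) called 5 nuclear genes higher and 0 lower. After FPKM was rescaled to the same sum per library, limma called 5 nuclear genes higher and 15 lower, the nuclear median turned to -0.11 and the mitochondrial median was 0.031, but the median of all genes was itself at -0.16, so that both stayed above it, by 0.06 and 0.19. On that scale the log2 fold changes also turned sign for ATP5MC1 (-0.14), ATP5MC3 (-0.075), ATP8 (-0.0016), COX2 (-0.0033), COX4I1 (-0.15), COX6B1 (-0.0013), COX7A2 (-0.10), COX7B (-0.014), COX8A (-0.044), ND5 (-0.047), ND6 (-0.12), NDUFA4 (-0.18) and UQCRHL (-0.015), and on FPKM without rescaling for ATP5MC1 (-0.030), COX4I1 (-0.032), ND6 (-0.0027) and NDUFA4 (-0.070); NDUFA4 also did under DESeq2 (-0.0014). Of these genes, edgeR called 0 in the reported fit. When a library was left out, log2 fold changes spanned -0.040 to 0.11 for ATP5MC1, -0.044 to 0.095 for COX4I1, -0.11 to 0.072 for ND4L and -0.029 to 0.048 for NDUFA4.

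With the replicate number as a block, 11 nuclear genes were called higher and 0 lower, and 3 mitochondrial genes higher (ND1, ND2 and ATP6). Over all tested genes, deviations of same-numbered libraries correlated at -0.02, 0.06 and 0.06. The log2 ratio of mitochondrial to nuclear counts nevertheless ranked the replicates alike in both groups. In replicates 1 to 3 it was 2.26, 2.52 and 2.37 in siControl and 2.42, 2.60 and 2.57 in siPSF. Whether same-numbered libraries were paired was not settled.

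On the lists, DESeq2 called 5 assembly factors and 1 cycle enzyme higher and 1 electron carrier gene lower. Without the filter, 1 regulator was called lower, 1 electron carrier gene higher and 0 cycle enzymes lower. limma on FPKM called 1 assembly factor higher and 6 lower, 1 electron carrier gene higher and 1 lower, 2 import genes lower and 5 cycle enzymes lower. After rescaling it called 1 and 9 assembly factors, 2 and 2 genes of transcription and maintenance, 0 and 7 regulators, 0 and 6 electron carrier genes and 1 and 6 import genes higher and lower, and 7 cycle enzymes lower. The block called 3 assembly factors and 1 cycle enzyme higher and 1 import gene lower. Leaving out each library gave 0 to 4 assembly factors higher and 1 to 2 lower, 2 to 8 genes of transcription and maintenance higher and 0 to 1 lower, 0 to 2 regulators higher and 1 to 2 lower, 0 to 2 electron carrier genes higher, 2 to 3 import genes higher and 0 to 1 lower, and 0 to 1 cycle enzymes higher and 0 to 2 lower. Where a cause is not given by the alternative's construction, the cause was not tested. With 3 libraries per group, changes of a size near 0.3 on the log2 scale lay at the limit of detection, and the low counts of COX6B2 and NDUFC2-KCTD14 limit their fold changes.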

Other observations

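Assembly factors of the complexes whose symbols lie outside the rule were mostly near their siControl levels. Of 51, 0 rose (beside 6.65% of all tested genes) and 2 fell (beside 8.27%) by edgeR's test, and DESeq2 called 5 higher. At an unadjusted p under 0.05, 11 were higher and 6 lower, beside 2835 higher and 3026 lower of the 19694 tested genes. ACAD9, which acts in complex I assembly, was at 37.0, 36.6 and 33.9 CPM in siControl and at 26.7, 25.7 and 27.3 CPM in siPSF, without overlap (log2 fold change -0.43 ± 0.09, edgeR adjusted p = 0.0071). UQCC1, which acts in complex III assembly, was at 56.8, 62.0 and 55.2 CPM and then 43.3, 45.9 and 28.4 CPM, lowest in siPSF 3 (-0.57 ± 0.15, edgeR adjusted p = 0.024). The median of the list was 0.09.

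Of 31 genes of mitochondrial protein import, 3 rose (9.68%, beside 6.65% of all tested genes) and 0 fell by edgeR (beside 8.27%), with 0 lower by DESeq2 too. At an unadjusted p under 0.05, 8 were higher and 2 lower, beside 2835 higher and 3026 lower of the 19694 tested genes. The median of the list was 0.10. TOMM7, a small subunit of the outer membrane translocase, was at 74.9, 75.6 and 64.6 CPM in siControl and at 97.8, 102 and 107 CPM in siPSF, with the groups apart (0.51 ± 0.09, edgeR adjusted p = 0.0025). TOMM34 rose by 0.36 and TIMM44, which ties the import motor to the inner membrane channel, by 0.30.

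Of 20 genes of electron carriers and entry dehydrogenases, 2 rose (10%, beside 6.65% of all tested genes) and 0 fell (beside 8.27%). The risen genes were COQ8A and COQ10A, both of coenzyme Q metabolism, by 0.31 and 0.41. The median of that list was -0.07, and CYCS, cytochrome c itself, differed by 0.03. Of 13 tricarboxylic acid cycle enzymes, 0 rose (beside 6.65%) and 2 fell (beside 8.27%). Among those that fell was SUCLA2, the ATP-forming succinyl-CoA ligase subunit, by 0.44. The SUCLA2 libraries were at 25.6, 21.4 and 26.2 CPM in siControl and at 18.3, 14.9 and 20.7 CPM in siPSF, without overlap. The count of fallen cycle enzymes was 0 without siControl 1 and without siControl 3, and the count of risen electron carrier genes was 0 without siControl 3. The median of the cycle enzymes was -0.08. All siPSF libraries lay below all siControl libraries for 6 of these 13 genes (beside 17.8% of all tested genes) and above for 2 (15.4%, beside 16.7%). These lists are described by their counts and medians, beside a median of 0.01 over all genes.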
